A study of Homo sapiens with 9 samples.

Results

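The levels of 10 genes of the circadian clock were followed in 9 RNA-seq libraries of the human liver cancer cell line Hep3B. They were taken from the table of read counts by gene symbol, as 10 of 60683 genes listed, and each was among the 22672 genes tested. They are the basic helix-loop-helix repressors BHLHE40 and BHLHE41, the repressors PER1, PER2, CRY1 and CRY2, the activators ARNTL and CLOCK, and the nuclear receptors NR1D1 and RORA. The cells were cultured for 24 hours with vehicle (DMSO) at 20% O2, with vehicle at 1% O2, or with 32-134D at 1% O2. In the study 32-134D was given to these cells at a single concentration, and each of these 3 groups had 3 biological replicates. The labels give one medium for the 3 groups, a mixture of DMEM and F12 with fetal bovine serum, whereas the study's methods give DMEM with high glucose and serum for this cell line. 32-134D is the compound the study developed to inhibit the hypoxia-inducible factors (HIFs), the transcription factors that accumulate when O2 is low. No library of cells given 32-134D at 20% O2 was analysed here, so an effect of the compound on the clock genes in the presence of O2 cannot be separated from its effect in hypoxia. Each group was a single cell line harvested at a single time, so a change in level and a shift in the phase of a rhythm cannot be told apart.

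The clock of mammalian cells is a transcriptional loop. ARNTL (also known as BMAL1) and CLOCK form a heterodimer that binds the E-box, a short DNA motif, and activates PER and CRY genes, whose products return to the nucleus and inhibit the heterodimer. BHLHE40 (DEC1) and BHLHE41 (DEC2) bind the same E-box and repress transcription from it. In a further loop, NR1D1 (REV-ERBα) represses and RORA activates transcription of ARNTL through a shared nuclear receptor element. The HIFs belong to the same family of basic helix-loop-helix PAS proteins as ARNTL and CLOCK and bind a core motif that resembles part of the E-box. In liver, the clock times much of glucose, lipid and bile acid metabolism.

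The sequences near the starts of the 10 genes show where these motifs lie. RefSeq windows of 300 bases, from 250 before to 50 after an annotated start (GRCh38.p14), were found for 10 of the 10 genes, as 13 windows because CRY2, ARNTL and CLOCK have more than 1 start. The E-box CACGTG was present, on either strand, in 3 of the 13 windows (23.1%), those of BHLHE40, BHLHE41 and PER1, and in 7.26% of the 35116 promoter windows of the same length. The HIF core motif ACGTG, which is contained in CACGTG and so is counted wherever the E-box occurs, was present in 9 of the 13 windows (69.2%) and in 21.4% of all windows. Its other form, GCGTG, was present in 5 windows (38.5%) and in 36.5% of all windows. The nuclear receptor half-site TAGGTCA was present in 2 windows (15.4%), of ARNTL and CRY2, and in 1.85% of all windows. These matches are descriptions of the sequence, and binding was not measured. The sites below are 30 bases long and are shown because they are the E-box matches and the ARNTL half-site, with the matching bases in capitals. They lie, in order, at chr3:4979187-4979216 (plus strand), chr12:26125068-26125097 (minus), chr17:8152560-8152589 (minus) and chr11:13277809-13277838 (plus), each written in the direction of the gene. GENCODE 29 has the BHLHE40, BHLHE41 and ARNTL sites in untranslated exons of these genes and the PER1 site in an intron.
BHLHE40 E-box: tccaaCACGTGagactcatgtgatgaagcc
BHLHE41 E-box: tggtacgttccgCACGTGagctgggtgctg
PER1 E-box: agcacccaggtcCACGTGcgcccgtgtgtg
ARNTL half-site: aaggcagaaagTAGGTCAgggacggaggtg

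The BHLHE40 window held further ACGTG matches that were not part of an E-box, on either strand, beginning at -174 and -149 from the start. The E-box began at -245 in BHLHE40, at -48 in BHLHE41 and at -173 in PER1. No match to any of these motifs was found in the window of RORA, the first of CLOCK or the second of ARNTL, which says only that these letters are absent from these windows.

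**Figure D1:**
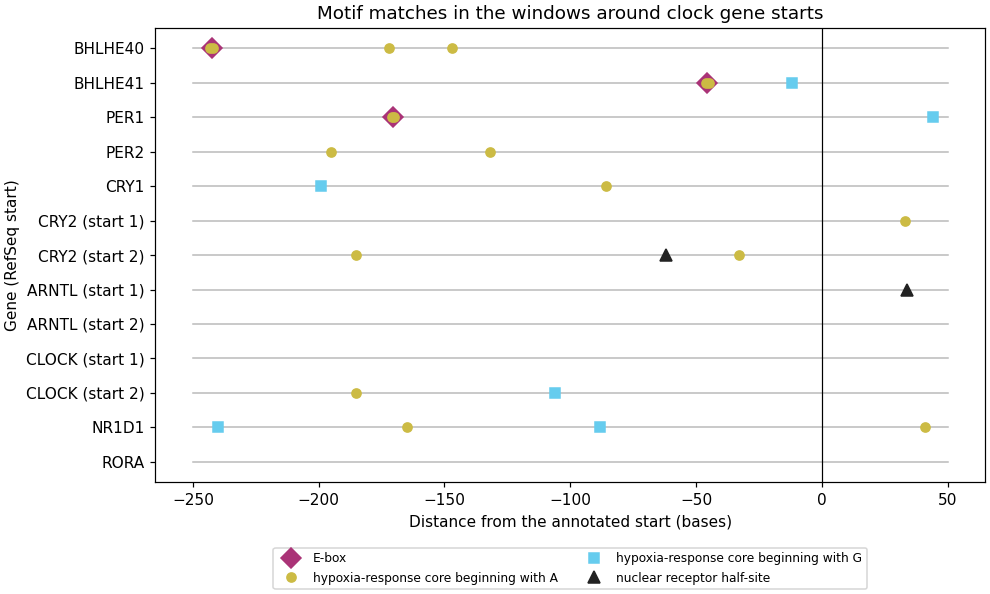
Motif matches in 13 windows around the annotated starts of the 10 clock genes, with the distance from the start in bases on the x axis and 1 line for each RefSeq start. Diamonds mark the E-box, circles and squares the HIF core beginning with A or G, and triangles the nuclear receptor half-site; the E-box is seen in 3 windows, those of BHLHE40, BHLHE41 and PER1.

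Total counts ran from 6013980 to 40549699 per library, with the smallest in replicate 2 of vehicle at 20% O2, and that library held 1412 reads on the 10 genes. Counts were scaled with the TMM method to CPM, counts relative to library size, and a gene was called when the FDR was below 0.05 and the fold change above 1.5 in edgeR's quasi-likelihood test. CA9, a HIF target used to check the labels, had 27.9 ± 1.14, 580 ± 61.8 and 56.6 ± 5.68 CPM (SD, n = 3) in vehicle at 20% O2, vehicle at 1% O2 and 32-134D. Of 6 hepatocyte markers, 6 were detected, summing to between 8444 and 13994 CPM per library, and the 3 leukocyte markers summed to less than 1 CPM in each library. Summed fibroblast markers, of which COL3A1 and ACTA2 were at or near 0, were 31.9 to 35.8 CPM in vehicle at 20% O2, 13.1 to 14.3 CPM in vehicle at 1% O2 and 27.9 to 30.05 CPM with 32-134D, and their part in the results was not tested. The markers of endothelial cells and cholangiocytes summed to at most 1.28 CPM and to between 109 and 163 CPM. Replicate 3 of 32-134D stood apart from its group. Its counts differed from those of replicates 1 and 2 by a chi-square of 45.6 and 40.2 for each degree of freedom. Between replicates 1 and 2 this value was 2.19. In the vehicle groups replicate 1 differed most from the others, by less than replicate 3 of 32-134D did. The values for replicate 1 were 6.61 and 14.5 at 20% O2 and 9.42 and 14.5 at 1% O2. Between replicates 2 and 3 they were 1.66 and 2.69 at these O2 levels. Differences in depth between libraries were not removed from this value. The hepatocyte marker TTR was 9.79 CPM in replicate 3 against 37.9 and 34.5 in replicates 1 and 2. ALB, AFP, APOA1 and SERPINA1 were also lower in replicate 3, whereas HNF4A was higher (380 CPM against 349 and 353). In these bulk libraries, fewer cells that express a gene and less of its RNA in each cell cannot be told apart.

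Hypoxia raised 6 of the 10 clock genes and lowered none, and 32-134D lowered 6 and raised none. In vehicle at 1% O2 compared with 20% O2, BHLHE40, BHLHE41, PER1, ARNTL, NR1D1 and RORA rose, and PER2, CRY1, CRY2 and CLOCK were not called. Of all genes tested, 19.5% were called higher and 20.3% lower. The median log2 fold change was 1.06 over the 10 genes and 0.00 over all genes tested. With 32-134D compared with vehicle at 1% O2, these 6 genes fell, against 13.7% of all genes called lower and 16.2% called higher, and the median log2 fold change was -0.87 over the 10 genes and -0.01 over all genes. At an unadjusted p below 0.05 in edgeR, still 0 of the 10 were lower in hypoxia and 0 higher with 32-134D, and DESeq2 also called 0. The vehicle libraries at 1% O2 enter each of these comparisons, whose values are therefore not independent. Compared with vehicle at 20% O2, cells given 32-134D at 1% O2 had 3 of the 10 genes higher (BHLHE40, NR1D1 and RORA) and none lower, against 3.0% and 0.516% of all genes called higher and lower. This comparison shares its libraries with the other comparisons. When libraries were scaled by their total counts instead of TMM, the median of all genes moved to -0.21 in hypoxia and 0.17 with 32-134D. The calls over all genes then split into 3081 higher and 5848 lower in hypoxia, against 4412 and 4595 with TMM, and into 4755 higher and 1847 lower with 32-134D, against 3675 and 3100.

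**Figure D2:**
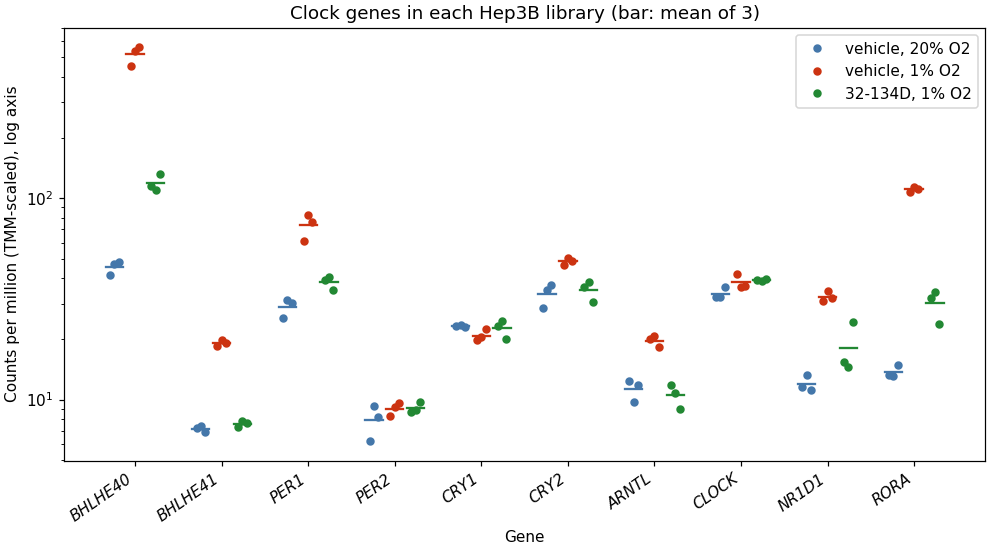
Level of each clock gene in each of the 9 libraries, in CPM on a log axis, with a point for each library and a bar at the mean of 3. The 3 libraries of vehicle at 1% O2 lie above the other 6 for BHLHE40, BHLHE41, PER1, CRY2, ARNTL, NR1D1 and RORA, with BHLHE40 at 455 to 561 CPM.

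**Figure D3:**
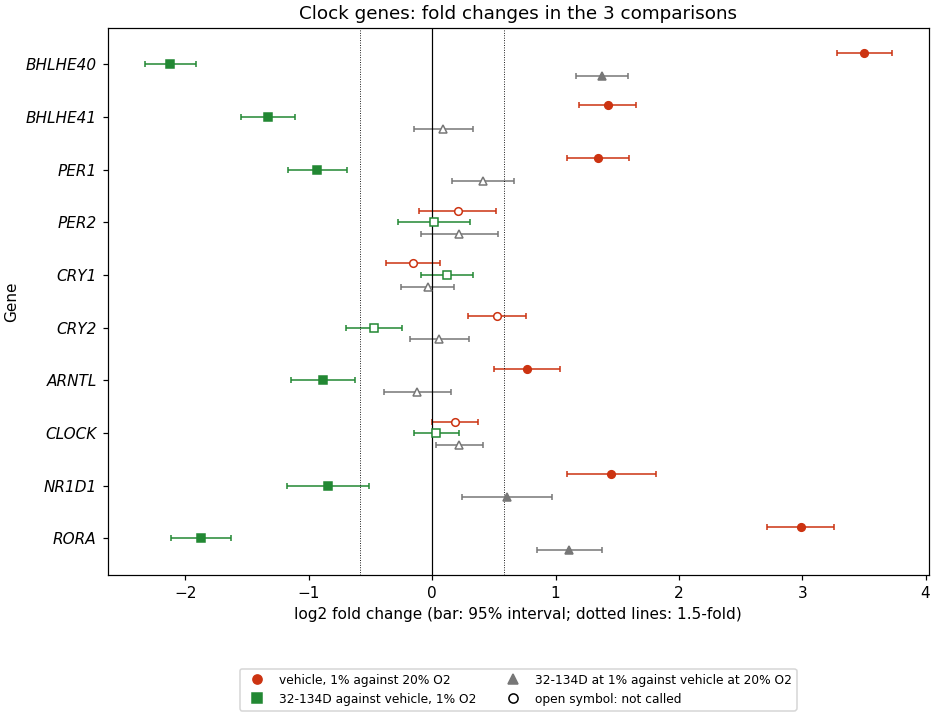
The log2 fold change of each clock gene in the 3 comparisons with its 95% interval, filled where the gene was called. BHLHE40 (3.50) and RORA (2.99) moved farthest in hypoxia, and the intervals of PER2 and CRY1 include 0 in each comparison.

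BHLHE40 had the largest change of the 10 genes. It had 41.7, 47.3 and 48.0 CPM in vehicle at 20% O2, 455, 537 and 561 CPM in vehicle at 1% O2, and 115, 110 and 131 CPM with 32-134D. The 3 groups did not overlap, and the 32-134D libraries lay between the vehicle groups. The rise in hypoxia was 11.3-fold (log2 fold change 3.50 ± 0.10 SE, edgeR adjusted p = 4.54e-12), which ranked 307 from the highest of 22672 genes. With 32-134D the level was 4.36-fold lower than in vehicle at 1% O2 (log2 fold change -2.12 ± 0.10 SE, adjusted p = 8.56e-10), rank 299 from the lowest, and it remained 2.60-fold above vehicle at 20% O2 (log2 fold change 1.38 ± 0.10 SE, adjusted p = 5.86e-07). BHLHE40 made up 21.0% ± 0.310 (SD, n = 3) of the reads of the 10 genes in vehicle at 20% O2, 58.1% ± 1.91 in vehicle at 1% O2 and 36.1% ± 3.21 with 32-134D.

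The paralog BHLHE41 moved in the same directions by less. It had 7.24, 7.38 and 6.87 CPM in vehicle at 20% O2, 18.4, 19.7 and 19.1 CPM at 1% O2, and 7.29, 7.81 and 7.64 CPM with 32-134D. The hypoxic libraries stood above all others, and those of 32-134D overlapped vehicle at 20% O2. It rose 2.68-fold in hypoxia (log2 fold change 1.42 ± 0.11 SE, adjusted p = 4.41e-08) and was 2.52-fold lower with 32-134D (-1.33 ± 0.10 SE, adjusted p = 1.13e-07). Between 32-134D and vehicle at 20% O2 the log2 difference was 0.09, with a 95% interval from -0.15 to 0.33.

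PER1 rose in hypoxia and PER2 was not called. PER1, a repressor of the ARNTL and CLOCK heterodimer that also responds to acute signals, had 25.3, 31.2 and 30.2 CPM in vehicle at 20% O2, 61.0, 82.3 and 76.4 CPM at 1% O2, and 39.2, 40.6 and 35.1 CPM with 32-134D. The groups did not overlap. The rise was 2.54-fold (log2 fold change 1.34 ± 0.12 SE, adjusted p = 1.74e-07) and the fall with 32-134D 1.91-fold (-0.93 ± 0.11 SE, adjusted p = 7.6e-06). PER1 with 32-134D was 1.33-fold its level in vehicle at 20% O2 (adjusted p = 0.0383), under the fold threshold. PER2, its paralog, had 6.24, 9.26 and 8.21 CPM in vehicle at 20% O2, 8.24, 9.19 and 9.61 CPM at 1% O2 and 8.71, 8.85 and 9.74 CPM with 32-134D. These 3 groups overlapped, and the 95% interval of the log2 change in hypoxia, -0.11 to 0.52, excludes a rise as large as that of PER1. PER2 counts were low, with 59 reads in the smallest library. The bases before the annotated starts of this pair are shown because the PER1 window held CACGTG and the PER2 window did not. Other forms of the E-box were not searched for. Matches to CACGTG or to a HIF core are in capitals. The PER1 stretch is the part of its window outside GENCODE exons, chr17:8152436-8152654 (minus strand), from 250 to 32 bases before the start. The PER2 stretch is chr2:238288611-238288860 (minus strand), from 250 to 1 base before the start, and holds ACGTG on either strand at -197 and again closer to the start.
PER1: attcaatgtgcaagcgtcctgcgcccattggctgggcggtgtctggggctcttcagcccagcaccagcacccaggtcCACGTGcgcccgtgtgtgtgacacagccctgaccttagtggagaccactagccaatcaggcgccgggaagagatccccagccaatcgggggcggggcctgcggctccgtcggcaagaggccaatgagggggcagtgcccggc
PER2: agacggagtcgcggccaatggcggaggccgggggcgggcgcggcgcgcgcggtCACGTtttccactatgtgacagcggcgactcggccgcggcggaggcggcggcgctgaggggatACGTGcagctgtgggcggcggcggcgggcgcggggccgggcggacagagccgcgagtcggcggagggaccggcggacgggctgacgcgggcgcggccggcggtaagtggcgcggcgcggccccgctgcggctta

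Neither cryptochrome was called. CRY1, a repressor whose product binds the heterodimer directly, had 23.1, 23.6 and 23.0 CPM in vehicle at 20% O2, 19.7, 20.4 and 22.4 CPM at 1% O2, and 23.2, 24.5 and 19.9 CPM with 32-134D. The log2 change in hypoxia was -0.16, with a 95% interval from -0.37 to 0.06 (adjusted p = 0.21), although the 3 hypoxic libraries lay below those at 20% O2. CRY2, its paralog, had 28.5, 34.9 and 37.3 CPM in vehicle at 20% O2, 46.6, 50.3 and 48.7 CPM at 1% O2, and 36.0, 38.4 and 30.4 CPM with 32-134D. The hypoxic libraries of CRY2 lay above all others. The difference passed the FDR but was 1.44-fold in hypoxia (log2 fold change 0.53 ± 0.11 SE, adjusted p = 0.000793) and 1.38-fold lower with 32-134D (-0.47 ± 0.11 SE, adjusted p = 0.00193), both under the fold threshold. Without replicate 3 of vehicle at 20% O2, CRY2 was called in hypoxia with a log2 fold change of 0.62.

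Of the heterodimer that drives the loop, ARNTL was called and CLOCK was not. ARNTL had 12.3, 9.74 and 11.8 CPM in vehicle at 20% O2, 20.0, 20.6 and 18.2 CPM at 1% O2, and 11.8, 10.8 and 9.01 CPM with 32-134D. The hypoxic libraries stood apart from the other 6, which overlapped. ARNTL rose 1.70-fold in hypoxia (log2 fold change 0.77 ± 0.13 SE, adjusted p = 0.000101) and was 1.85-fold lower with 32-134D (-0.89 ± 0.12 SE, adjusted p = 2.54e-05). With libraries scaled by total counts the rise was 0.56 on the log2 scale, under the fold threshold. CLOCK had 32.3, 32.2 and 36.1 CPM in vehicle at 20% O2, 42.3, 36.3 and 36.7 CPM at 1% O2, and 39.1, 39.0 and 39.9 CPM with 32-134D. Its log2 change was 0.19 in hypoxia (adjusted p = 0.0832) and 0.03 with 32-134D (95% interval -0.15 to 0.21). Under the scaling by total counts the signs of the CLOCK and PER2 changes in hypoxia turned, to -0.023 and -0.0056.

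Both nuclear receptors rose, RORA by more. RORA, the activator of the ARNTL element, had 13.3, 13.03 and 14.9 CPM in vehicle at 20% O2, 108, 113 and 111 CPM at 1% O2, and 32.1, 34.3 and 23.6 CPM with 32-134D. The groups did not overlap, and the 32-134D libraries lay nearer to those at 20% O2. It rose 7.93-fold in hypoxia (log2 fold change 2.99 ± 0.13 SE, adjusted p = 1.26e-10), was 3.67-fold lower with 32-134D (-1.88 ± 0.11 SE, adjusted p = 1.22e-08), and stayed 2.16-fold above vehicle at 20% O2 (1.11 ± 0.12 SE, adjusted p = 4.79e-05). NR1D1, the repressor acting on the same element, had 11.5, 13.2 and 11.2 CPM in vehicle at 20% O2, 30.7, 34.5 and 31.8 CPM at 1% O2, and 15.4, 14.5 and 24.4 CPM with 32-134D. The groups did not overlap, but replicate 3 of 32-134D was the highest of its group for NR1D1 and the lowest for RORA. NR1D1 rose 2.74-fold in hypoxia (log2 fold change 1.45 ± 0.17 SE, adjusted p = 3.49e-06) and was 1.80-fold lower with 32-134D (-0.85 ± 0.16 SE, adjusted p = 0.000384). Without replicate 3 of 32-134D, the fall with the compound was -1.11 for NR1D1 and -1.73 for RORA on the log2 scale, and 6 of the 10 genes were again lower. Against vehicle at 20% O2, NR1D1 with 32-134D was 1.52-fold higher (0.61 ± 0.17 SE, adjusted p = 0.0361). That call rested on few libraries: it was lost in 6 of the 9 fits that left out 1 library (each replicate of vehicle at 20% O2, replicates 1 and 2 of vehicle at 1% O2, and replicate 3 of 32-134D), where the adjusted p ranged from 0.0573 to 0.16 except without replicate 3 of 32-134D, where the log2 difference dropped to 0.35. The last exons of NR1D1 and of THRA, on the opposite strand, overlap by 263 bases, 9.49% of NR1D1's exon length. The strand setting of the counting is not given in the sources used here, so reads in that overlap cannot be assigned to 1 gene. The same limit holds for other members that overlap exons on the opposite strand. Among them are BHLHE41 with SSPN (162 bases, 4.1% of BHLHE41's exon length) and RORA with RORA-AS1 (564 bases, 3.31% of RORA's). THRA changed in the opposite direction, with log2 changes of -0.92 (hypoxia) and 0.65 (compound).

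Ratios of paired genes within a library do not depend on how libraries are scaled. The log2 ratio of BHLHE40 to BHLHE41 read counts was 2.64 ± 0.15 (SD, n = 3) in vehicle at 20% O2, 4.75 ± 0.13 at 1% O2 and 3.95 ± 0.14 with 32-134D. The ratio of PER1 to PER2 was 1.86 ± 0.14, 3.003 ± 0.14 and 2.06 ± 0.19 in the same groups. The hypoxic libraries therefore held relatively more of the first gene of each of these pairs. The ratio of ARNTL to CLOCK was -1.56 ± 0.16, -0.97 ± 0.14 and -1.90 ± 0.21, so that with 32-134D it lay below vehicle at 20% O2 without overlap. The ratio of CRY1 to CRY2 was -0.52 ± 0.20, -1.22 ± 0.09 and -0.63 ± 0.02, and that of NR1D1 to RORA -0.20 ± 0.21, -1.77 ± 0.05 and -0.75 ± 0.70. For NR1D1 and RORA, replicate 3 of 32-134D had a ratio of 0.05 and replicates 1 and 2 had -1.05 and -1.24. In hypoxia and with 32-134D, the groups did not overlap for 5 of the 5 pairs. Ratios of other genes were not examined, so how often pairs separate among all genes is not known here. Each exact two-sided permutation test of these 5 pairs in these comparisons gave p = 0.1 (adjusted over 15 tests, 0.125). With 3 libraries against 3 this is the smallest p that this test can give, so no ratio could pass 0.05 in it.

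**Figure D4:**
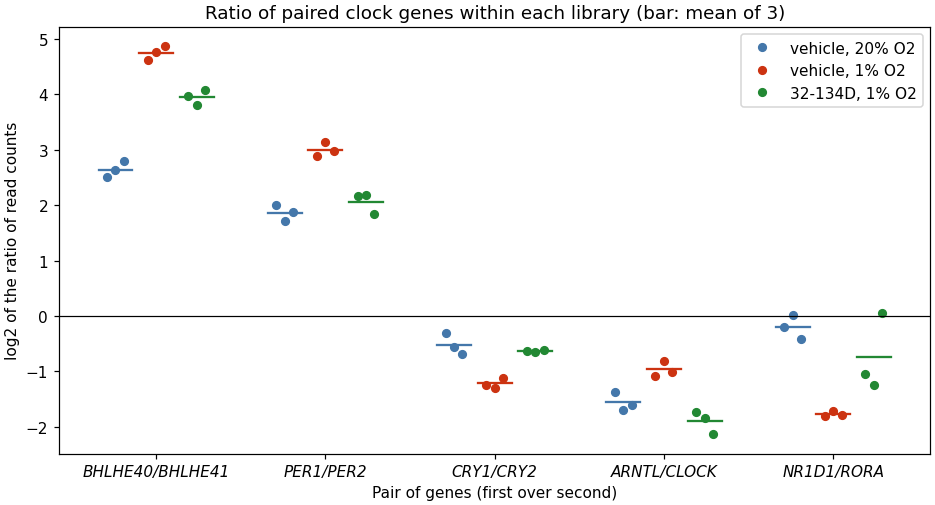
The log2 ratio of read counts for 5 pairs of clock genes within each of the 9 libraries, with a point for each library and a bar at the mean of 3. The libraries of vehicle at 1% O2 stand apart from the other groups in each pair, upward for BHLHE40/BHLHE41 (4.75 on average) and downward for NR1D1/RORA (-1.77).

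Levels can be ranked between genes only per length, as RPKM, which scales reads to GENCODE 29 exon length and to library size. In vehicle at 20% O2, BHLHE40 was the highest at 11.9 RPKM, followed by CRY2 (5.41), CRY1 (4.59), NR1D1 (4.32), PER1 (4.13), CLOCK (2.85), BHLHE41 (1.81), ARNTL (1.68), PER2 (1.15) and RORA (0.807). Libraries overlapped between neighbours from CRY2 to PER1 and between BHLHE41 and ARNTL, so those neighbours did not differ beyond their spread. In vehicle at 1% O2 the order was BHLHE40 (135), NR1D1 (11.7), PER1 (10.5), CRY2 (7.82), RORA (6.48), BHLHE41 (4.83), CRY1 (4.11), CLOCK (3.27), ARNTL (2.91) and PER2 (1.31), and of these neighbours only NR1D1 and PER1 overlapped. RORA, which has 17.04 kb of exons when all its annotated exons are merged, moved from the last place to the fifth. Which of these exons the cells use was not examined, and the places by RPKM depend on this length. With 32-134D, BHLHE40 led at 31.0 RPKM, NR1D1 (6.53), CRY2 (5.64) and PER1 (5.47) overlapped in turn, CRY1 (4.45) and CLOCK (3.35) stood apart from their neighbours, and BHLHE41 (1.92), RORA (1.76), ARNTL (1.57) and PER2 (1.32) overlapped in turn. BHLHE40 lay above the other 9 genes in each group.

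A further 25 genes of the clock and its outputs were examined, of which 24 were tested, since RORB had 5 reads in all. In hypoxia 8 of these rose, 5 fell and 11 were not called, against 19.5% of all genes called higher and 20.3% lower, and the median log2 fold change was 0.26. With 32-134D 5 rose and 6 fell, against 16.2% and 13.7% of all genes, with a median of -0.15. Compared with vehicle at 20% O2, 3 were higher with 32-134D (NOCT, WEE1 and NAMPT), and edgeR called 0 lower, 5 at an unadjusted p below 0.05 and 1 with DESeq2. In this comparison edgeR called 3.0% of all genes higher and 0.516% lower, so few lower calls are common to most genes. The numbers lower in hypoxia and higher with 32-134D were near the shares of all genes. Without replicate 3 of 32-134D, NFIL3 (0.62) and USP2 (0.71) were also called higher against vehicle at 20% O2, which made 5 genes, and without replicate 1 DBP (-0.81) and RXRA (-0.59) were called lower.

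The paralogs of the core genes did not all move with them. NPAS2, which can replace CLOCK in the heterodimer, had 48.7 ± 2.06, 15.9 ± 1.22 and 39.0 ± 1.18 CPM (SD, n = 3) in vehicle at 20% O2, vehicle at 1% O2 and 32-134D, a fall in hypoxia (log2 fold change -1.62, adjusted p = 1.17e-09) and a rise with 32-134D (1.30, adjusted p = 2.38e-08). PER3 also fell in hypoxia (-1.27, adjusted p = 2.92e-05) and rose with 32-134D (0.95, adjusted p = 0.000401). The third period gene thus moved against PER1, and ARNTL2, the paralog of ARNTL, was not called (0.08 and 0.04). NR1D2 (REV-ERBβ), with 39.0 ± 3.06, 93.8 ± 0.757 and 50.1 ± 2.35 CPM, rose in hypoxia (1.26, adjusted p = 4.98e-09) and fell with 32-134D (-0.90, adjusted p = 2.32e-07), as NR1D1 did. CIART had 0 to 6 reads per library.

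Of the PAR bZIP output factors, which read the clock into metabolism, HLF fell in hypoxia (log2 fold change -1.45, adjusted p = 5.7e-05) and rose with 32-134D (1.08, adjusted p = 0.000798), while DBP and TEF were not called (-0.14 and -0.33 in hypoxia). DBP differed by -0.47 with 32-134D (adjusted p = 0.0762), was called lower without replicate 1 of 32-134D (-0.62) and was at -0.22 without replicate 3, which held 3.52 CPM against 7.54 and 6.73. NFIL3, which represses the genes that these factors activate, rose from 30.7 ± 0.867 to 114 ± 10.2 CPM in hypoxia (1.89, adjusted p = 9.45e-09) and was 42.2 ± 8.22 CPM with 32-134D (-1.43, adjusted p = 2.37e-07). Replicate 3 of 32-134D held 8.14 CPM of HLF against 17.1 and 17.9, and 32.7 CPM of NFIL3 against 47.3 and 46.5; without it HLF changed by 1.34 and NFIL3 by -1.28 with the compound.

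Among 8 kinases and ubiquitin enzymes of the clock, 2 rose in hypoxia and none fell. For the rise this is near the 19.5% of all genes called higher, and 20.3% of all genes were called lower. These were USP2, a deubiquitinase (log2 fold change 0.96, adjusted p = 0.00567), and the kinase CSNK1A1 (0.65, adjusted p = 4.09e-06). USP2 had 11 reads in replicate 2 of vehicle at 20% O2, or 1.73 CPM against 4.02 and 4.01 in replicates 1 and 3. The CSNK1A1 rise was under the fold threshold (0.54) without replicate 1 of vehicle at 20% O2. CSNK1E, FBXW11, BTRC and GSK3B passed the FDR in hypoxia below 1.5-fold (0.53, 0.56, 0.44 and -0.39), and CSNK1D and the pseudogene FBXL21P were not called (0.07 and 0.03). FBXW11 was called without replicate 2 (0.60) or replicate 3 (0.59) of vehicle at 20% O2. With 32-134D, edgeR and DESeq2 each called 0 of the 8, where edgeR called 16.2% of all genes higher and 13.7% lower. In edgeR 4 had an unadjusted p below 0.05, and these also passed the FDR, with log2 differences under the fold threshold (CSNK1E -0.34, CSNK1A1 -0.36, FBXW11 -0.46 and GSK3B 0.46), and USP2 was called lower (-0.64) when replicate 2 of 32-134D was left out.

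Of 4 rhythmic outputs, 3 rose in hypoxia and fell with 32-134D, where 19.5% of all genes were called higher in hypoxia and 13.7% lower with the compound. NOCT, a phosphatase of NADP(H), had 6.24 ± 0.357, 44.0 ± 4.74 and 11.01 ± 1.61 CPM in the 3 groups, a log2 rise of 2.82 (adjusted p = 3.81e-10) and a fall of -1.99 (adjusted p = 1.13e-08). NAMPT, the rate-limiting enzyme of NAD salvage, rose by 2.53 (adjusted p = 4.85e-11) and changed by -1.59 with the compound (adjusted p = 6.24e-09). WEE1, a kinase that holds cells before mitosis, rose by 2.01 (adjusted p = 2.82e-10) and changed by -1.20 (adjusted p = 8.15e-08). TIMELESS, which acts mainly in DNA replication in mammals, passed the FDR with -0.49 in hypoxia, under the fold threshold, and was called (-0.62) without replicate 1 of vehicle at 20% O2.

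A further group of 3 genes has been described as repressed by BHLHE40 or BHLHE41, and they did not share a direction. SREBF1, a regulator of lipid synthesis, fell from 186 ± 8.17 to 65.7 ± 3.51 CPM in hypoxia (log2 fold change -1.50, adjusted p = 3.24e-10) and was 147 ± 0.900 CPM with 32-134D (1.16, adjusted p = 1.04e-08). RXRA, a partner of many nuclear receptors, fell by 1.18 on the log2 scale (adjusted p = 5.54e-06) and rose by 0.71 with 32-134D (adjusted p = 0.000784). PPARGC1A, a coactivator of RORA, moved the other way, by 0.75 in hypoxia (adjusted p = 0.00364) and -0.89 with 32-134D (adjusted p = 0.000835). Replicate 3 of 32-134D again stood apart, with 141 CPM of RXRA against 231 and 227, and 5.49 CPM of PPARGC1A against 10.2 in each of the others. Without it, RXRA changed by 0.91 and PPARGC1A by -0.66 with the compound.

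**Figure D5:**
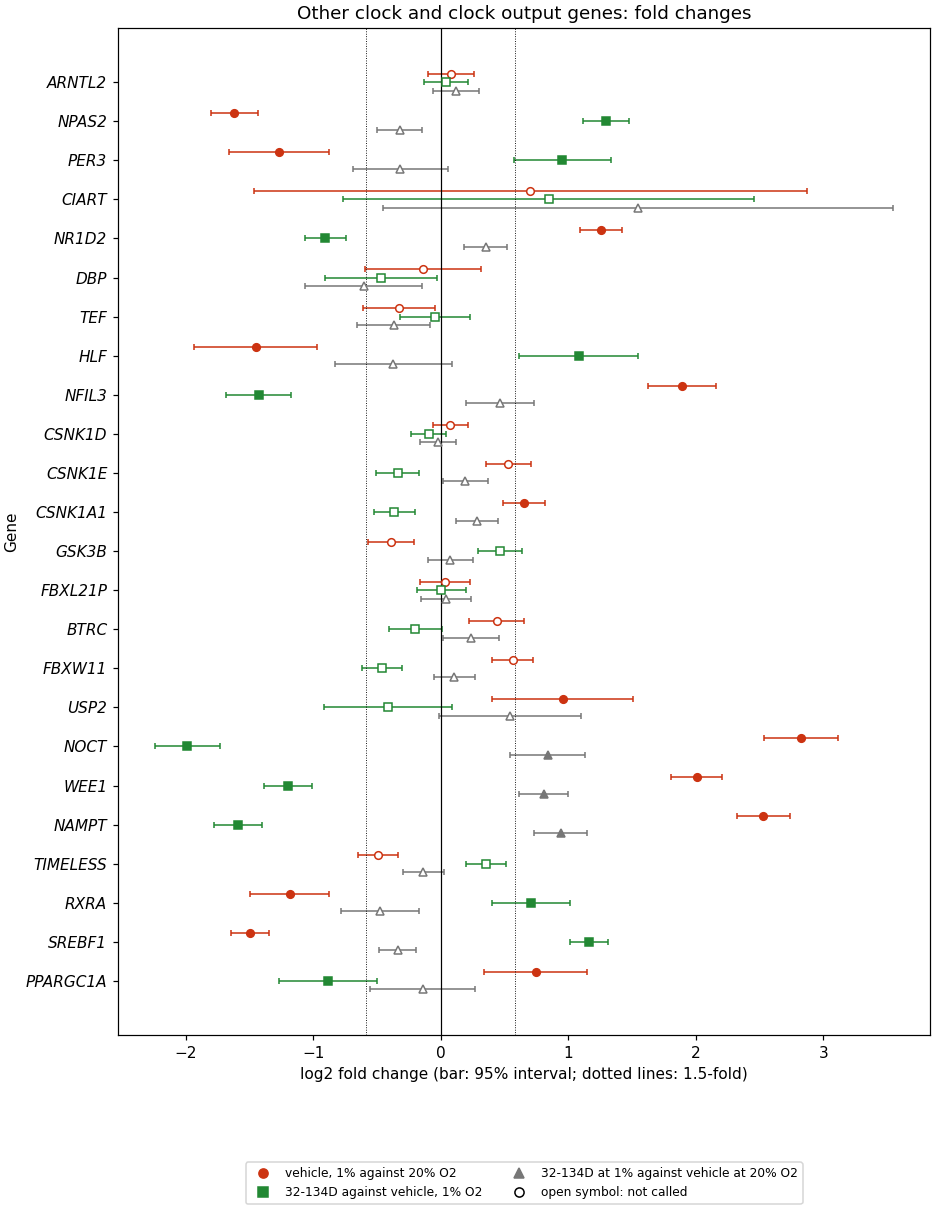
The log2 fold changes of the 24 other clock and clock output genes tested, with 95% intervals, in the 3 comparisons, filled where the gene was called. NOCT (2.82), NAMPT (2.53), WEE1 (2.01) and NFIL3 (1.89) lie farthest to the right in hypoxia, and NPAS2 (-1.62), SREBF1 (-1.50) and HLF (-1.45) farthest to the left.

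The genes whose pattern was most like that of BHLHE40 were found by the Pearson correlation of log2 CPM over the 9 libraries, among 11514 genes with a mean count of at least 100. They were ARRDC2 (r = 0.998), EMC7 (0.998), PLA2G12B (0.997), ZBTB11 (0.997) and ACBD3 (0.997). Within the clock genes, WEE1 (0.997), NAMPT (0.991) and RORA (0.987) came closest. For NR1D1 the genes most alike were RBCK1 (0.997), SUPV3L1 (0.993), GPT2 (0.993), NXPH4 (0.992) and CSNK1E (0.991). These values describe points that fall into 3 groups, share their libraries and follow the change between groups, and with Spearman's rho none of these 5 genes was among the 5 most alike for either gene. Likeness of pattern also hid differences in size: ARRDC2 went from 22.9 to 128 CPM in hypoxia and EMC7 from 42.6 to 96.9 CPM, against 45.7 to 518 CPM for BHLHE40.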

How the data were processed

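The authors deposited raw counts per Ensembl gene (Ensembl 100, GRCh38) for 9 libraries, made with FastQC, Bbduk, STAR and featureCounts. The strand setting and the tool versions are not given in the sources used here. Replicates are biological per the labels, which do not say whether cultures were independent. The p-values therefore weigh group differences only against the spread between these samples. That spread was estimated over the 3 groups in 1 fit, with information shared across genes. All 9 columns were matched to samples, and 0 were left unmapped. The counts, as deposited, were compared with edgeR 4.0.16 in R 4.3.3 (TMM, 1 quasi-likelihood fit of 9 libraries without a replicate block), for 22672 genes whose counts summed to 10 or more. P-values were Benjamini-Hochberg adjusted over these genes, and SE is the log2 fold change over the root of F. The common biological coefficient of variation was 10.5%. Log ratios used a prior count of 2. DESeq2 1.42.0, other scalings, filters and thresholds, fits of 2 groups, omission of each library and a replicate block were alternatives, and thinning to the smallest library was added after seeing the data. The procedure was tested on simulated counts. The 10 genes and the lists were chosen with earlier results of these data known, and named genes are the members, the genes of the further clock lists (less 3 that are not reported here and are in none of the counts of these lists), CA9, THRA and the 5 genes most alike to BHLHE40 and to NR1D1. Opposite-strand and marker genes were named as checks. GENCODE 29 (GRCh38), an earlier annotation of the same assembly, gave positions and exon lengths. Precision is limited by 3 libraries per group and by few reads in the smallest library.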

Additional observations from a re-analysis of the deposited data

How the results depend on the processing

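Over 19 alternatives, the number of the 10 clock genes called higher in hypoxia ran from 5 to 7 and lower was 0. The number lower with 32-134D ran from 3 (a fold threshold of 2) to 7, and higher was 0. Against vehicle at 20% O2, 2 to 4 were higher and 0 lower. The calls over all 22672 genes also moved with the threshold. At a fold threshold of 2 and with no fold threshold, 2449 and 6318 genes were higher in hypoxia and 3286 and 5814 lower. With 32-134D, 1188 and 5788 were lower and 2451 and 4973 higher at these settings. Against vehicle at 20% O2, 283 and 1771 were higher and 21 and 553 lower. BHLHE40, BHLHE41 and RORA kept their calls in hypoxia and with 32-134D in each alternative, with BHLHE40 between 3.29 and 3.59 in hypoxia and between -2.21 and -1.93 with the compound. The call of NR1D1 against vehicle at 20% O2 was lost in 10 of 19 alternatives. Among the other clock genes, a fold threshold of 2 left 5 higher in hypoxia, 3 higher with 32-134D and 0 higher against vehicle at 20% O2, where no fold threshold gave 6 higher and 3 lower. In that comparison no filter on low counts and DESeq2 each gave 1 lower, and leaving out a library gave 3 to 5 higher, with 5 without replicate 3 of 32-134D, and 0 to 2 lower, with 2 without replicate 1 of 32-134D. Over all genes, 291 of 33284 were lower with no filter and 145 of 22672 with DESeq2. Without replicate 3 of 32-134D, 627 of 22282 were higher, and without replicate 1, 198 of 22069 were lower. No alternative turned the sign of a called gene, while 46 values of 11 genes turned sign where the gene was not called. Leaving out 1 library, they ranged in hypoxia from -0.017 to 0.092 (CSNK1D) and -0.024 to 0.072 (FBXL21P). With 32-134D they ranged from -0.14 to 0.059 (TEF), -0.050 to 0.13 (PER2), -0.0042 to 0.11 (CLOCK) and -0.025 to 0.066 (FBXL21P). Against vehicle at 20% O2 they ranged from -0.044 to 0.16 (CRY2), -0.014 to 0.13 (GSK3B), -0.0072 to 0.10 (FBXL21P), -0.10 to 0.042 (CRY1), -0.052 to 0.035 (CSNK1D) and -0.27 to 0.068 (PPARGC1A). Scaling by total counts gave, in hypoxia, -0.0056 (PER2), -0.023 (CLOCK), -0.14 (ARNTL2 and CSNK1D) and -0.18 (FBXL21P), and with 32-134D 0.14 (TEF) and 0.092 (CSNK1D). With at least 10 counts in every library, hypoxia gave -0.032 (ARNTL2), -0.038 (CSNK1D) and -0.075 (FBXL21P), and 32-134D 0.050 (TEF). RLE size factors gave -0.013 (FBXL21P, hypoxia) and 0.013 (TEF, 32-134D), DESeq2 gave -0.017 and 0.015 for the same genes, no filter gave -0.0043 (FBXL21P, 32-134D), and fits of 2 groups gave 0.019 (TEF, 32-134D). Thinning, chosen after seeing the data, gave -0.024 (CSNK1D) and -0.016 (FBXL21P) in hypoxia, 0.042 (TEF) and 0.0084 (CSNK1D) with 32-134D, and -0.16 (BHLHE41) and -0.022 (CRY2) against vehicle at 20% O2. The causes were not tested. Low counts limit PER2, BHLHE41 and ARNTL, with 47 to 62 reads in the smallest library. They also limit USP2, PER3, NOCT and PPARGC1A, which had 11, 29, 42 and 59 reads in that library.

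Same-numbered libraries did not deviate together, with correlations of their deviations between -0.21 and 0.08, so the numbers were not taken as pairs. With the replicate number as a block, 6 of the 10 clock genes were again higher in hypoxia and 6 lower with 32-134D, and 3 were higher against vehicle at 20% O2. Over all genes the block moved the calls to 4296 higher and 4375 lower in hypoxia and to 3474 and 3012 with 32-134D.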

Other observations

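The antisense transcripts named after BHLHE40 and RORA had few reads. BHLHE40-AS1, which overlaps the exons of BHLHE40 by 4 bases, had 2, 1 and 5 reads in vehicle at 20% O2, 56, 42 and 57 at 1% O2, and 19, 11 and 14 with 32-134D. It rose in hypoxia (log2 fold change 3.54, edgeR adjusted p = 1.95e-06) and fell with 32-134D (-1.81, adjusted p = 7.04e-05), close in size to the changes of BHLHE40, and that difference was not tested. RORA-AS1, which shares 564 exon bases with RORA, had 3, 0 and 6 reads in vehicle at 20% O2, 3, 0 and 1 at 1% O2, and 5, 6 and 6 with 32-134D. On these few reads it was called higher with 32-134D than in vehicle at 1% O2 (log2 fold change 2.05, edgeR adjusted p = 0.047), opposite to RORA, and was not called in hypoxia (-1.77, adjusted p = 0.109). Without the strand setting, reads in the bases shared with RORA, 27.7% of RORA-AS1's exon length, cannot be assigned to 1 gene. RORA-AS2 had 0 reads in each library.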
